A study of Rattus norvegicus with 13 samples.

Results

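The genes named Zfp followed by a number form a large group of rat zinc finger genes, and 233 of them were followed here in the hypothalamus of male Sprague-Dawley rats on 3 diets. The array table named 251 such genes with a single symbol, and the 233 members were chosen by signal, as those whose mean log2 signal over the 13 arrays reached 6.58, the median of all row means. They were part of 16033 genes tested in all. A gene with several rows was read from its row with the highest mean. Their signal levels are therefore a description only. Just inside the threshold lay Zfp53 with a mean of 6.64 and Zfp300 with 6.65, and just outside it lay Zfp36 with 6.57 and Zfp473 with 6.50. The other Zfp genes below the threshold, 18 in all with Zfp36 and Zfp473, were not tested.

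Rats reached the laboratory when 6 to 7 weeks old and were allotted at random to a diet that they ate freely for 2 months, which made them 14 to 15 weeks old when tissue was taken. The low-fat control diet, LF-CD, had 16% of its energy from soybean oil (4 arrays). The high-fat diets had 35% of their energy from oil, which was flaxseed oil in HF-FD (4 arrays) and safflower oil in HF-SD (5 arrays). All animals were males of an outbred strain with no genetic change named. The low-fat and high-fat diets differ in both the amount and the source of oil, so these cannot be told apart in the comparisons with LF-CD. Flaxseed oil is a source of alpha-linolenic acid, an omega-3 fat, and many safflower oils hold mostly linoleic acid, an omega-6 fat. Each array measured 100 ng of total RNA from the whole micro-dissected hypothalamus, a mixture of neurons, glia and other cells.

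Most proteins with these names carry C2H2 zinc fingers, small folds held by a zinc ion that read DNA when several stand in a row. Many also carry a KRAB domain, which recruits the corepressor Trim28 and through it histone methylation, and these proteins silence transposable elements and nearby genes. Others act as promoter factors, or bind RNA in place of DNA. The genes often lie in clusters that arose by duplication, and for many members no role is well known.

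The arrays differed in ways that touch every comparison, also that of the oils. The median signal of all rows ran from 6.42 to 6.74, and the interquartile range over the tested genes was 1.36 ± 0.03 in LF-CD (SD, n = 4), 1.46 ± 0.05 in HF-FD (n = 4) and 1.58 ± 0.06 in HF-SD (n = 5). For this reason each change is given with the deposited log2 values and again after quantile normalization, which gives each array the same distribution. Hypothalamic markers were present, with all 13 tested and a mean log2 signal of 9.11 ± 0.13 in LF-CD, 9.19 ± 0.05 in HF-FD and 9.02 ± 0.22 in HF-SD. Those with the smallest unadjusted p in HF-SD against LF-CD were Agrp, Nr5a1, Otp and Pomc. Their deposited log2 changes were -0.37, -0.29, -0.14 and -0.27. Agrp and Nr5a1 passed with deposited values (adjusted p = 0.00917 and 0.0108 by limma), and only Nr5a1 after quantile normalization (adjusted p = 0.0204). Skeletal muscle genes averaged 9.55 on LF-CD replicate 3, against a lowest LF-CD value of 7.72. They ran from 7.45 to 7.65 in HF-FD and from 7.36 to 7.53 in HF-SD, so every LF-CD array lay above every high-fat array. The 5 neuron markers averaged 11.07 to 11.32 in LF-CD, 11.27 to 11.31 in HF-FD and 11.33 to 11.61 in HF-SD. All 5 passed the test as higher in HF-SD than LF-CD with deposited values and 0 did after quantile normalization. Ependymal and tanycyte markers averaged 7.96 to 8.35 in LF-CD, 7.96 to 8.47 in HF-FD and 7.90 to 7.95 in HF-SD. Oligodendrocyte markers averaged 9.84 to 10.01 in LF-CD, 9.30 to 10.04 in HF-FD and 9.99 to 10.42 in HF-SD. Blood markers averaged 7.63 to 8.89, 7.35 to 9.27 and 7.61 to 8.23 in these groups. Pituitary markers averaged 6.89 ± 0.34 in LF-CD, 6.99 ± 0.17 in HF-FD and 6.24 ± 0.46 in HF-SD. RMA gives no zeros, so no marker stood at 0. The part of muscle, neuronal, ependymal, oligodendrocyte, blood or pituitary RNA, or of scaling, in the Zfp results was not tested, apart from the values without LF-CD replicate 3 below. In whole-tissue RNA, fewer cells of a type and less RNA per cell cannot be told apart.

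On the safflower diet more Zfp genes passed the test as higher than as lower under all 3 normalizations, with small changes, and centring on the tested genes turned that balance. With deposited values, 46 members were higher in HF-SD than in LF-CD and 19 were lower. After quantile normalization 39 were higher and 8 lower, and after cyclic loess normalization 34 were higher and 23 lower. Centring each array on the median of the tested genes gave 22 higher and 44 lower, and centring on the median of all rows, an alternative chosen after the data were seen, gave 150 higher and 0 lower. The first centring called 42.1% of all tested genes in either direction, and the second 60.4%. Each call is an adjusted p under 0.05 from limma with Benjamini-Hochberg adjustment over the 16033 genes.

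With deposited values 19.7% of the members were called higher and 8.15% lower, and with quantile normalization 16.7% and 3.43%. The 65 called members were 27.9% of the 233, against 39.8% of all tested genes (22.9% higher and 16.9% lower). With quantile normalization the 47 called members were 20.2%, against 14.6% of all genes (10.1% higher and 4.51% lower), and with loess the 57 were 24.5% against 20.8% (9.51% higher and 11.3% lower). A positive change, called or not, was seen for 134 members with deposited values (57.5%, against 60.8% of all genes), 156 with quantile normalization (67% against 58.3%) and 140 with loess (60.1% against 52.1%). The median log2 change of the members was 0.03 with deposited values, where all genes had 0.07, and 0.08 with quantile-normalized values, where all genes had 0.04. Centring on all rows moved the median change of all genes to 0.28, and that of the members then was 0.24. The lowest deposited change of a member was -0.35 and the highest 0.45 (log2), a 1.36-fold difference. Both called and at 1.2-fold or more were 24 members with deposited values and 31 after quantile normalization. This was not counted over all genes, so it cannot be said whether that is many or few.

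Signals of LF-CD and HF-SD did not overlap for 27 members that were higher in HF-SD and 22 that were lower, with deposited values. Over all genes such separation was seen for 13.5% as higher and 12.5% as lower, which in the members was 11.6% and 9.44%. After quantile normalization 49 members were apart as higher and 14 as lower, which is 21% and 6.01% of them, against 10.1% and 5.38% of all genes. A member's 95% confidence interval reached 0.144 to either side of the change at the median.

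Both main scalings called 36 members in the same direction, 29 higher and 7 lower. Deposited values alone called 29 more and quantile-normalized values alone 11 more. Among these 11, Zfp513, a gene linked to retinitis pigmentosa in humans, was lower and the other 10 were higher. All 3 normalizations called 24 members higher, which is 10.3% against 5.81% of all genes, and 7 members lower, which is 3% against 3.91%. Of these 31 members, 22 stayed past the threshold with each array left out in turn, and 14 did so with quantile-normalized values as well. Those 14 were Zfp46, Zfp110, Zfp189, Zfp248, Zfp281, Zfp317, Zfp445, Zfp458, Zfp472, Zfp644, Zfp770, Zfp799 and Zfp846, which were higher, and Zfp579, which was lower. Of them, Zfp458 and Zfp472 had LF-CD means under the signal threshold and passed the filter through their high-fat arrays. Centring on the tested genes kept 16 of the 24 higher calls and all 7 lower ones, and centring on all rows kept all 24 higher calls and 0 of the 7 lower ones, of which 5 kept their sign. Calls shared by both main scalings, kept with arrays left out or kept under centring were not counted over all genes. It cannot be said whether these counts are many or few.

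**Figure D1:**
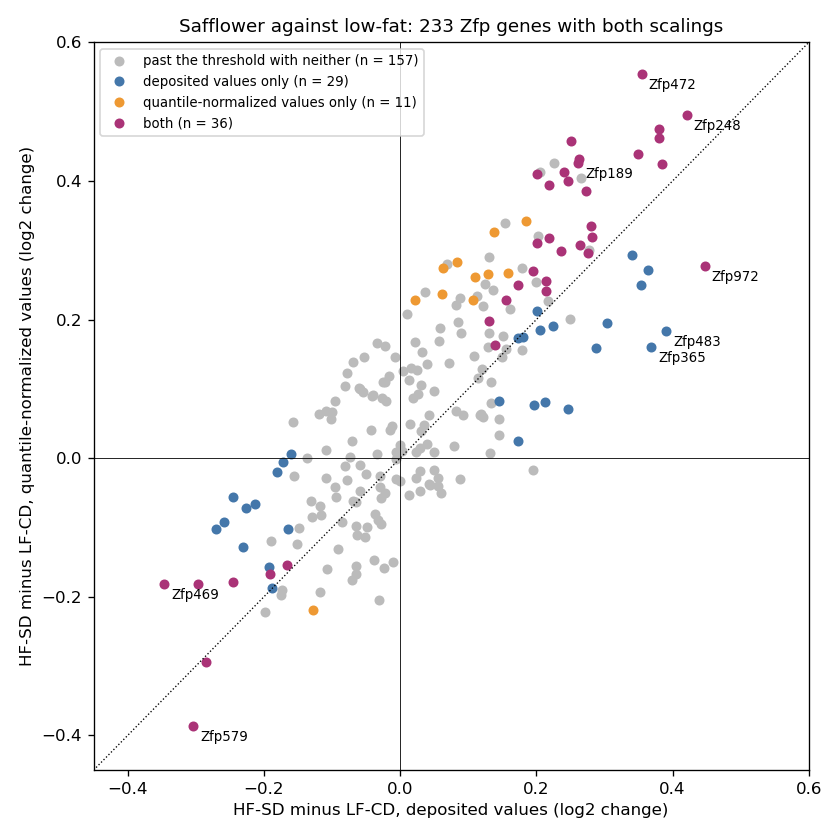
Each point is 1 of the 233 Zfp genes, with its HF-SD minus LF-CD log2 change from deposited values on the x axis and from quantile-normalized values on the y axis, coloured by which of them passed adjusted p 0.05, and the dotted line marks equal changes. Neither scaling called 157 genes, both called 36, deposited values alone 29 and quantile-normalized values alone 11; the points above 0 outnumber those below with either scaling, while centring on the tested genes turned the balance of calls.

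Zfp281, a repressor that works with the NuRD complex and restrains pluripotency genes in mouse stem cells, had log2 signals of 7.30, 7.29, 7.30 and 7.47 in LF-CD, 7.44, 7.45, 7.42 and 7.53 in HF-FD, and 7.77, 7.48, 7.68, 7.51 and 7.62 in HF-SD. The HF-SD arrays all lay above the LF-CD arrays, by a narrow margin from LF-CD replicate 4, and HF-FD overlapped both groups. The change from LF-CD to HF-SD was 0.27 (SE 0.07, adjusted p = 0.00793 by limma), and 0.39 after quantile normalization (adjusted p = 0.00941).

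Zfp445, which protects genomic imprints in mouse and human embryos, read 7.65, 7.80, 7.89 and 7.86 in LF-CD, 7.99, 8.04, 7.95 and 8.0 in HF-FD, and 8.04, 8.01, 8.01, 8.12 and 8.22 in HF-SD. Every high-fat array of either oil lay above every LF-CD array. In HF-SD the change was 0.28 (SE 0.06, adjusted p = 0.00575 by limma) and 0.32 after quantile normalization (adjusted p = 0.0134). Zfp57, the other well known imprint guardian, changed by 0.12 with deposited values and 0.22 with quantile-normalized values, and passed the test with neither (adjusted p = 0.187 and 0.0627).

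Zfp644, a partner of the G9a and GLP histone methyltransferases, had signals of 7.83, 7.87, 7.87 and 7.89 in LF-CD, 7.99, 8.04, 8.0 and 8.03 in HF-FD, and 8.05, 7.97, 8.07, 8.10 and 8.20 in HF-SD. Its 4 LF-CD arrays lay close together and below every high-fat array. The HF-SD change was 0.21 (SE 0.05, adjusted p = 0.00782 by limma). Zfp410, which in mouse and human cells drives the NuRD gene Chd4, read 7.67, 7.66, 7.59 and 7.69 in LF-CD, 7.83, 7.77, 7.72 and 7.75 in HF-FD, and 7.85, 7.77, 7.90, 7.68 and 7.83 in HF-SD. HF-SD replicate 4 overlapped the LF-CD arrays. The Zfp410 change of 0.16 (SE 0.06, adjusted p = 0.0378 by limma) passed the test with all 3 normalizations, but with deposited values it was lost when any of 8 arrays was left out (LF-CD replicates 1, 2 and 3, HF-FD replicate 2, HF-SD replicates 1, 2, 3 and 5), with changes of 0.13 to 0.16 and adjusted p-values of 0.0501 to 0.0923.

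Zfp189 has been tied to stress resilience in the mouse prefrontal cortex. It read 6.92, 6.98, 6.92 and 7.03 in LF-CD, 7.17, 7.18, 7.14 and 7.16 in HF-FD, and 7.30, 7.12, 7.31, 7.12 and 7.26 in HF-SD. All high-fat arrays lay above all LF-CD arrays, and the HF-SD arrays split around the HF-FD ones. The change in HF-SD was 0.26 (SE 0.06, adjusted p = 0.00538 by limma) and 0.43 after quantile normalization (adjusted p = 0.00936).

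Zfp110, known in mouse as Nrif, a partner of the p75 neurotrophin receptor in neuronal cell death, read 7.88, 7.90, 7.89 and 7.88 in LF-CD, 8.14, 8.02, 7.86 and 8.06 in HF-FD, and 8.21, 8.09, 8.21, 8.08 and 8.22 in HF-SD. HF-SD was fully above LF-CD, whereas HF-FD replicate 3 fell below all of LF-CD. The HF-SD change was 0.28 (SE 0.06, adjusted p = 0.00557 by limma) and 0.30 after quantile normalization (adjusted p = 0.0127).

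Other rises were in members with no well known role. Zfp472 read 6.38, 6.29, 6.69 and 6.73 in LF-CD, 6.94, 6.88, 6.88 and 6.97 in HF-FD, and 6.80, 6.86, 6.83, 6.96 and 6.92 in HF-SD. LF-CD replicates 1 and 2 were lowest, but all LF-CD arrays lay below all high-fat arrays. Its HF-SD change was 0.36 (SE 0.08, adjusted p = 0.00674 by limma) and 0.55 after quantile normalization (adjusted p = 0.00936), the highest of the 233 members with that scaling.

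Zfp952 lies next to Zfp472 on chromosome 7. It read 6.45, 6.40, 6.52 and 6.68 in LF-CD, 6.74, 6.80, 6.74 and 6.79 in HF-FD, and 6.61, 6.58, 6.75, 6.81 and 6.81 in HF-SD. HF-SD replicates 1 and 2 fell below LF-CD replicate 4, and after quantile normalization the HF-SD and LF-CD arrays no longer overlapped. The change was 0.20 (SE 0.07, adjusted p = 0.0327 by limma) with deposited values and 0.41 (adjusted p = 0.00941) after quantile normalization. The LF-CD mean of Zfp952 also lay under the signal threshold. With deposited values the call was lost without LF-CD replicate 1 or 2 or HF-SD replicate 3, 4 or 5, where the change was 0.16 to 0.19 and the adjusted p 0.0628 to 0.0978. Neighbouring zinc finger genes can be near-identical copies, and whether probes of Zfp472 and Zfp952 read both genes was not tested.

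Zfp248 read 7.13, 7.54, 7.70 and 7.74 in LF-CD, 7.83, 7.92, 7.74 and 7.86 in HF-FD, and 7.93, 8.05, 7.92, 7.90 and 7.94 in HF-SD. The LF-CD arrays were spread widely, with replicate 1 lowest, and all of them lay below HF-SD. The change was 0.42 (SE 0.10, adjusted p = 0.00682 by limma) and 0.50 after quantile normalization (adjusted p = 0.0182). Zfp972 read 9.26, 9.19, 8.96 and 9.26 in LF-CD, 9.48, 9.34, 9.26 and 9.31 in HF-FD, and 9.78, 9.59, 9.61, 9.38 and 9.71 in HF-SD. Its HF-SD arrays were all above LF-CD with deposited values and overlapped LF-CD after quantile normalization, where HF-SD replicate 4 lay below LF-CD replicate 1. The Zfp972 change was 0.45 (SE 0.09, adjusted p = 0.00399 by limma), falling to 0.28 (adjusted p = 0.0334) with quantile-normalized values.

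Further members that were higher with all 3 normalizations moved by like amounts. With deposited values Zfp770, Zfp46 and Zfp654 each rose by 0.38, Zfp317 by 0.35, Zfp35 and Zfp708 by 0.26, and Zfp458 and Zfp799 by 0.25. With quantile-normalized values these were 0.42, 0.46 and 0.48 for Zfp770, Zfp46 and Zfp654, 0.44 for Zfp317, 0.31 and 0.43 for Zfp35 and Zfp708, and 0.46 and 0.40 for Zfp458 and Zfp799. Of these 8 genes, Zfp708 lost its deposited call in 10 of the 13 fits without 1 array, all except those without LF-CD replicate 3 or 4 or HF-FD replicate 1, and without LF-CD replicate 1 the change was 0.12 and the adjusted p 0.122 by limma.

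**Figure D2:**
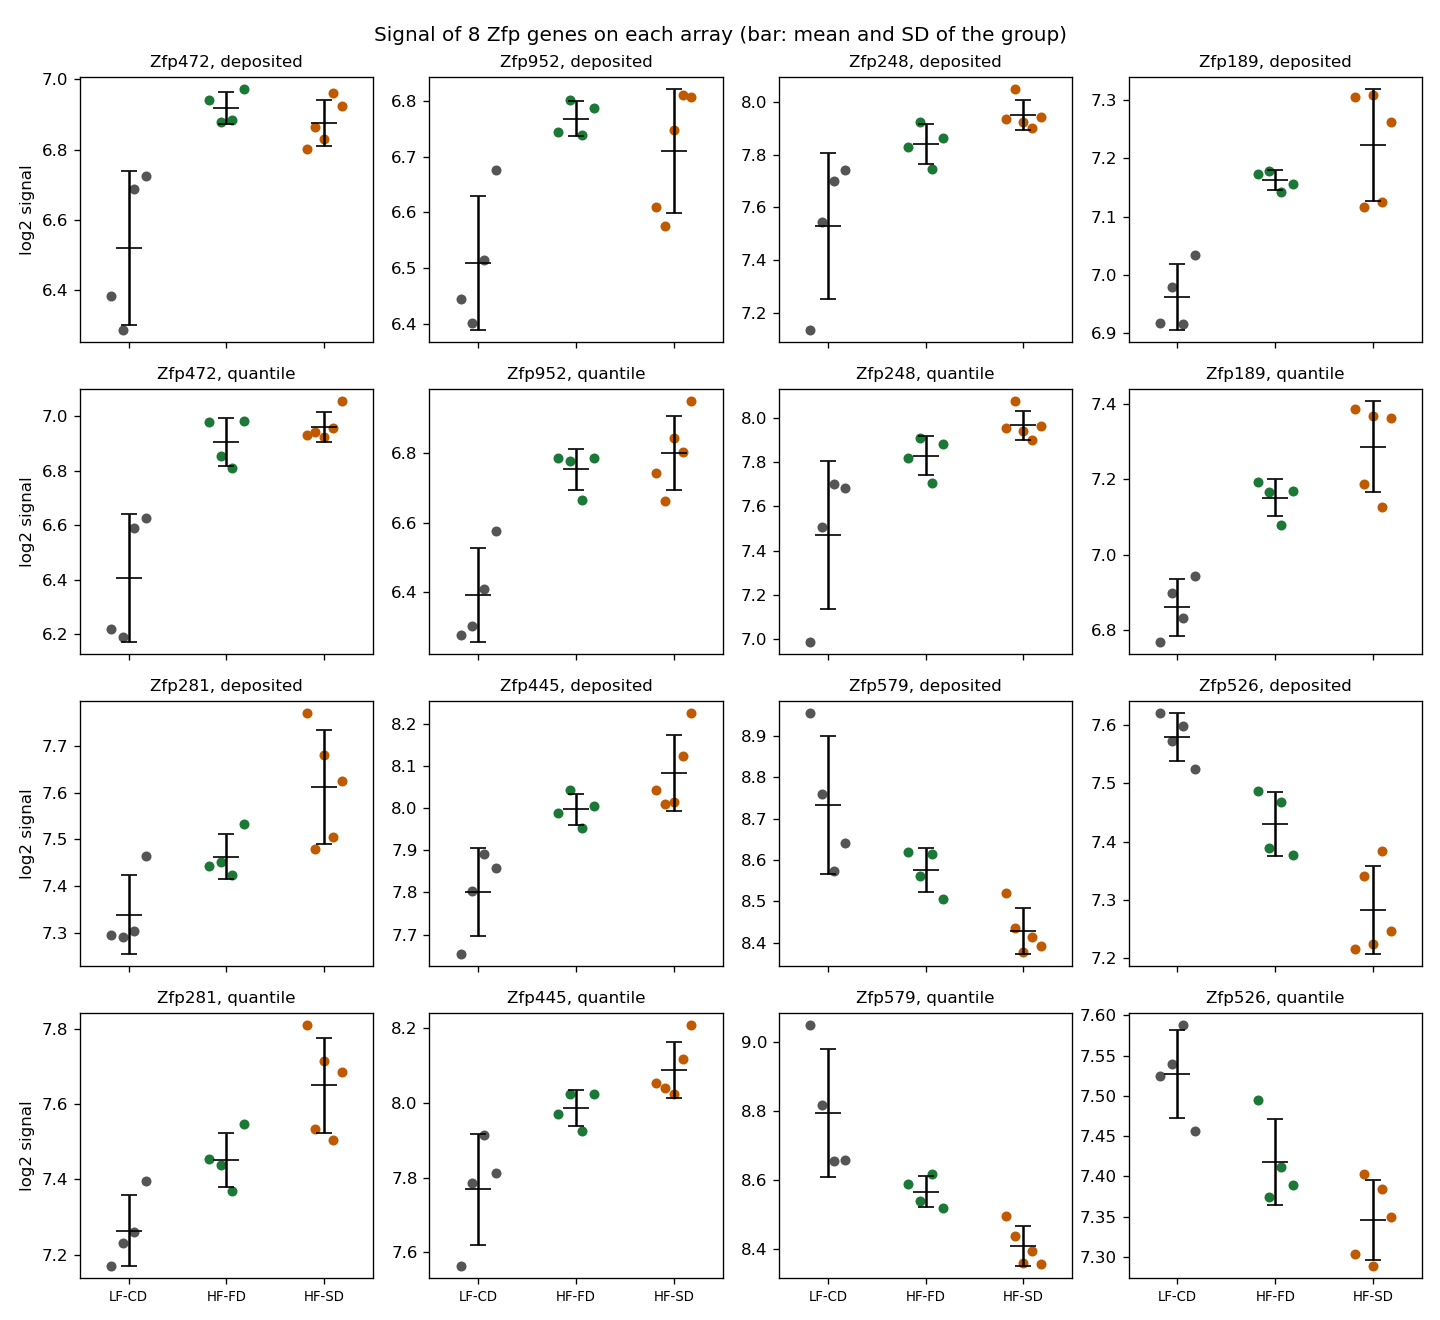
Log2 signal on each of the 13 arrays (points) for 8 Zfp genes in LF-CD, HF-FD and HF-SD, with deposited values in the upper and quantile-normalized values in the lower panel of each gene; bars are the group mean and SD, and each panel has its own axis. Zfp472, Zfp248, Zfp189, Zfp281 and Zfp445 stand fully above LF-CD in HF-SD, Zfp952 does so after quantile normalization, and Zfp579 and Zfp526 stand fully below.

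The 7 members that were lower with all 3 normalizations were Zfp469, Zfp524, Zfp526, Zfp579, Zfp697, Zfp839 and Zfp956. None of these calls held when arrays were centred on the median of all rows. Zfp579 read 8.95, 8.76, 8.57 and 8.64 in LF-CD, 8.62, 8.56, 8.61 and 8.51 in HF-FD, and 8.52, 8.44, 8.38, 8.41 and 8.39 in HF-SD. LF-CD replicates 1 and 2 were highest, all LF-CD arrays exceeded HF-SD, and HF-FD lay between with some overlap. The gene fell by 0.30 on the log2 scale (SE 0.07, adjusted p = 0.00664 by limma), and its change after quantile normalization was -0.39 (adjusted p = 0.0102).

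Zfp524, which in human cells binds telomeres, lies near Zfp579 on chromosome 1. Its signals were 8.42, 8.22, 8.0 and 8.29 in LF-CD, 8.11, 8.04, 8.09 and 7.92 in HF-FD, and 7.96, 7.95, 8.04, 7.85 and 7.94 in HF-SD. LF-CD replicate 3 fell inside the HF-SD range. The change was -0.29 with either scaling (SE 0.08 with deposited values; adjusted p = 0.0115 and 0.0218 by limma).

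Zfp526, whose human counterpart has been linked to microcephaly and cataract, read 7.62, 7.57, 7.60 and 7.52 in LF-CD, 7.49, 7.39, 7.47 and 7.38 in HF-FD, and 7.22, 7.34, 7.23, 7.38 and 7.25 in HF-SD. The LF-CD arrays were above every high-fat array. The gene fell by 0.30 (SE 0.05, adjusted p = 0.00385 by limma), and its change after quantile normalization was -0.18 (adjusted p = 0.0265). Zfp469, altered in human brittle cornea syndrome, read 7.32, 7.31, 7.18 and 7.23 in LF-CD, 6.99, 7.01, 7.20 and 7.14 in HF-FD, and 6.95, 7.00, 6.91, 6.95 and 6.76 in HF-SD. LF-CD and HF-SD did not overlap. The Zfp469 change was -0.35 (SE 0.06, adjusted p = 0.00399 by limma) and -0.18 after quantile normalization (adjusted p = 0.0452). Zfp697 fell by 0.25, Zfp839 by 0.19 and Zfp956 by 0.17 with deposited values. The Zfp956 call was lost in 5 of the 13 fits without 1 array (LF-CD replicate 1 or 4, HF-SD replicate 1, 3 or 5), at adjusted p-values of 0.0534 to 0.0736 and changes of -0.14 to -0.16.

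Another set of calls rested on the scaling. Zfp483, whose human counterpart has been linked to age at menarche, read 9.59, 9.85, 9.83 and 9.69 in LF-CD, 10.13, 10.05, 10.03 and 10.03 in HF-FD, and 10.10, 10.24, 10.02, 10.16 and 10.14 in HF-SD. With deposited values every high-fat array exceeded every LF-CD array, and after quantile normalization LF-CD replicate 2 overlapped HF-SD. The HF-SD change was 0.39 (SE 0.07, adjusted p = 0.00379 by limma), the smallest adjusted p of any member, but 0.18 after quantile normalization (adjusted p = 0.0707).

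Zfp365, which binds the neuronal protein DISC1, read 9.75, 9.90, 9.41 and 9.78 in LF-CD, 10.03, 9.78, 9.96 and 9.83 in HF-FD, and 9.98, 9.96, 9.82, 9.98 and 10.64 in HF-SD. HF-SD replicate 5 stood alone at the top, LF-CD replicate 3 at the bottom, and the groups overlapped. The change of 0.37 (SE 0.14, adjusted p = 0.0496 by limma) was 0.16 after quantile normalization (adjusted p = 0.490), 0.23 without HF-SD replicate 5 (adjusted p = 0.0865) and 0.27 without LF-CD replicate 3 (adjusted p = 0.148). It was lost in 10 of the 13 fits without 1 array, all except those without LF-CD replicate 2, HF-FD replicate 1 and HF-SD replicate 3.

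Zfp717 changed by 0.36 with deposited values and 0.27 after quantile normalization (adjusted p = 0.00755 and 0.0675 by limma). Another row of Zfp717 changed by 0.12 with deposited values. Zfp91, a ubiquitin ligase of the NF-kB pathway, changed by 0.25 with deposited values (adjusted p = 0.0290) and by 0.07 with quantile-normalized values (adjusted p = 0.579). The Zfp91 call was lost without LF-CD replicate 1, 2 or 3 or HF-SD replicate 1, 3 or 5, with changes of 0.21 to 0.25 and adjusted p-values of 0.050 to 0.0788. Zfp106, an RNA-binding protein of motor neurons and muscle in mouse, changed by 0.20 and by -0.02 with these scalings and passed with neither (adjusted p = 0.187 and 0.937).

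Among deposited lower calls, Zfp683 (Hobit, a factor of tissue-resident T cells) changed by -0.27 (adjusted p = 0.00492 by limma), Zfp787 by -0.26 (adjusted p = 0.00894) and Zfp541, a gene of male meiosis in mouse, by -0.25 (adjusted p = 0.0157). After quantile normalization they were -0.10, -0.09 and -0.06, with adjusted p-values of 0.218, 0.310 and 0.644. The Zfp541 call was also lost without LF-CD replicate 1, where the change was -0.18 and the adjusted p 0.0513. Zfp112 was the only called member whose sign turned between both scalings, from -0.16 (adjusted p = 0.0228) to 0.01 (adjusted p = 0.951), and its deposited call was lost without LF-CD replicate 2 (adjusted p = 0.0503) or HF-SD replicate 1 or 5 (0.0524 and 0.0507).

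The split between scalings followed signal. Below a log2 signal of 7, the 24 members had a median change of 0.03 with deposited values, where all 1839 genes of that range had -0.21. From 7 to 8, the 111 members had 0.02 and all genes -0.06. At 8 and over, the 98 members had 0.04 and all genes 0.17. With quantile-normalized values the medians of members were 0.23, 0.12 and 0.01 in these ranges, against -0.01, 0.04 and 0.04 for all genes.

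Quantile-normalized calls followed the same order. Of the members below 7, 8 were higher (33.3%, against 11.1% of all genes there), from 7 to 8 it was 29 (26.1% against 15.6%), and at 8 and over it was 2 (2.04% against 6.31%). A gene with an LF-CD mean under the signal threshold passed the filter only through a higher mean on its high-fat arrays. Among the higher members below 7, this held for Zfp458, Zfp472, Zfp830 and Zfp952. The filter was the same for all genes, and its part in the calls and median changes below 7 was not tested. With deposited values the members at 8 and over included 19 higher calls (19.4%), against 35.6% of all genes there. Members had a lower median mean signal than all tested genes, 7.88 against 8.10, and 154 of them were below the median of the tested genes.

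**Figure D3:**
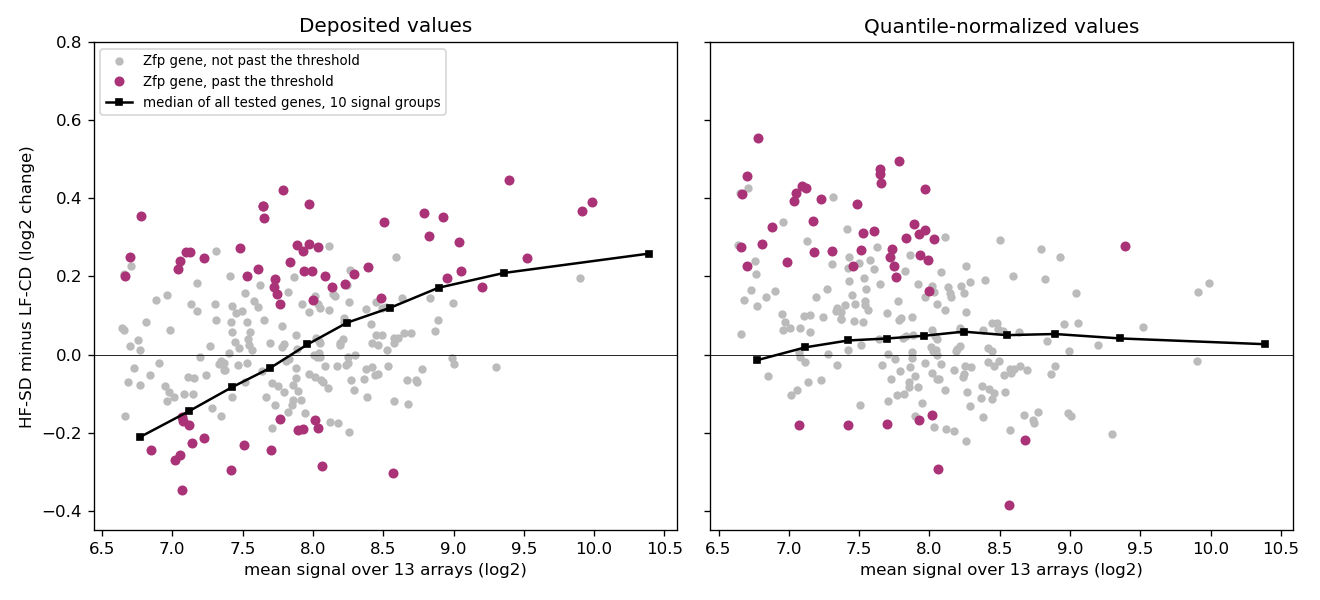
HF-SD minus LF-CD log2 change of the 233 Zfp genes (points, coloured where past adjusted p 0.05) against their mean log2 signal over 13 arrays, with deposited values on the left and quantile-normalized values on the right; the black line joins the medians of all tested genes in 10 signal groups. With deposited values the line of all genes climbs with signal while Zfp genes below 7 have a median of 0.03, and with quantile-normalized values the line is near 0 and higher calls lie mostly below a signal of 8.

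Members with a known role were set in 3 lists. Of 16 tested members in the list of chromatin, promoter and repression factors, 5 were higher with deposited values and 0 lower, with a median change of 0.07. Of all tested genes 22.9% were higher and 16.9% lower, with the same median of 0.07. These were Zfp281, Zfp410 and Zfp644, described above, Zfp143, a factor at promoters and chromatin loops (0.14, adjusted p = 0.0382 by limma), and Zfp148, a factor of GC-rich promoters (0.21, adjusted p = 0.0203). The first 3 also passed after quantile normalization, with no other of this list, and the list median was then 0.04, where all genes had 0.04. Zfp148 lost its call without LF-CD replicate 1 (0.16, adjusted p = 0.0653). Zfp143 lost its call without LF-CD replicate 1, 2 or 4, HF-FD replicate 2 or HF-SD replicate 1, 2, 3 or 5, with changes of 0.11 to 0.16 and adjusted p-values of 0.0524 to 0.112.

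Within the same list Zfp532, Zfp592 and Zfp687, partners of the chromatin reader ZMYND8 in human cells, had changes of 0.06, -0.01 and -0.04. Zfp335, altered in human microcephaly, had -0.12 and Zfp516, a driver of brown fat genes in mouse, had -0.15, and both passed as lower with loess-normalized values only. Zfp407, needed for PPAR gamma target genes in mouse fat cells, had 0.04, and Zfp451, a SUMO ligase, had 0.08. Zfp219 had -0.03, Zfp462, which guards heterochromatin in mouse stem cells, 0.13, and Zfp653 -0.11. None of these passed with deposited or quantile-normalized values.

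The RNA and translation list had 7 tested members, of which 1 was higher and 0 lower with deposited values, with a median change of 0.11. All tested genes had 22.9% higher and 16.9% lower, with a median of 0.07. Zfp638, which takes part in HUSH silencing and adipocyte differentiation, read 7.95, 8.09, 8.50 and 8.61 in LF-CD, 8.40, 8.61, 8.48 and 8.76 in HF-FD, and 8.67, 8.62, 8.58, 8.66 and 8.62 in HF-SD. Its LF-CD arrays split into 2 low and 2 high, and LF-CD replicate 4 overlapped HF-SD. The Zfp638 change of 0.34 (SE 0.12, adjusted p = 0.0326 by limma) was lost after quantile normalization (0.29, adjusted p = 0.142) and without LF-CD replicate 1 or 2 or HF-SD replicate 1, 2 or 5, at changes of 0.23 to 0.34 and adjusted p-values of 0.0506 to 0.114.

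After quantile normalization the single call of the RNA and translation list was Zfp326, a splicing and elongation factor, at 0.24 (adjusted p = 0.0286 by limma), and the list median was 0.23. All tested genes then had 10.1% higher and 4.51% lower, with a median of 0.04. Zfp622, which helps mature the large ribosomal subunit, had 0.20 and 0.25 with both scalings (adjusted p = 0.0805 and 0.0618). Zfp598, which senses collided ribosomes, had 0.00 and -0.03, Zfp346, a double-stranded RNA binder, 0.01 and 0.05, and Zfp330 0.11 and 0.23, none past the threshold.

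Of 10 members known in neural, glial or adipocyte development, 1 was higher with deposited values (Zfp365), 0 were lower, and 0 were called after quantile normalization, with medians of 0.02 and 0.00. All tested genes had 22.9% higher and 16.9% lower with deposited values, and 10.1% and 4.51% after quantile normalization, with medians of 0.07 and 0.04. Zfp423, which commits precursors to the fat lineage in mouse, changed by -0.02 and its relative Zfp521 by 0.12 with deposited values. Zfp24, needed for myelination in mouse, changed by 0.05, and Zfp488, an oligodendrocyte factor, by -0.01. Zfp292, linked to human neurodevelopmental disorders, had 0.28, Zfp536, a brake on neuronal differentiation, 0.09, and Zfp467, Zfp703 and Zfp704 had -0.10, -0.18 and 0.00. None of these passed with deposited or quantile-normalized values, and loess normalization called Zfp423 and Zfp703 lower.

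The partners through which KRAB zinc finger proteins repress genes were read as a separate list of 28 tested genes, which are not members. With deposited values 12 were higher and 1 lower, with a median change of 0.15, where all tested genes had 22.9% higher, 16.9% lower and a median of 0.07. With quantile-normalized values 2 were higher and 0 lower, with a median of 0.03, where all genes had 10.1% higher, 4.51% lower and a median of 0.04. Loess normalization called 2 higher and 3 lower. Morc3, a chromatin ATPase, changed by 0.32 and 0.39 with deposited and quantile-normalized values (adjusted p = 0.00784 and 0.0183 by limma), and Smarcad1, a nucleosome remodeller, by 0.31 and 0.34 (adjusted p = 0.0118 and 0.0350). The NuRD members Rbbp7 and Gatad2b changed by 0.30 and 0.27 with deposited values and 0.13 and 0.05 after quantile normalization, where neither passed (adjusted p = 0.193 and 0.689). Trim28 itself changed by 0.14 with deposited values (adjusted p = 0.240).

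Other zinc finger families were counted in the same comparison, where 22.9% of all genes were higher and 16.9% lower with deposited values, and 10.1% and 4.51% after quantile normalization. Of 37 Zbtb genes, 5 were higher and 3 lower with deposited values, and 3 and 1 after quantile normalization. Of 28 Klf and Sp genes, 3 were higher and 5 lower, then 3 and 2, and of 17 Zscan and Zkscan genes, 0 were higher and 3 lower, then 3 and 0. Of 7 genes named Znf, 1 was higher and 1 lower, then 2 and 0, and of 10 Prdm genes 1 was higher and 1 lower, then 0 and 1. None of 8 Zic and Egr genes was called with either scaling. Whether these families differ from the Zfp genes was not tested.

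No Zfp gene passed the threshold on the flaxseed diet. In HF-FD against LF-CD, limma called 0 members and 0% of all genes with deposited, quantile-normalized and loess-normalized values, and the smallest adjusted p of a member was 0.205 with deposited values. At an unadjusted p under 0.05, 38 members were higher and 7 lower with deposited values, which is 16.3% and 3% against 12.9% and 7.26% of all genes. After quantile normalization it was 57 and 7 (24.5% and 3%, against 8.86% and 4.02%), and after loess 35 and 13 (background 6.03% and 7.47%). Either direction together made 45 members with deposited values (19.3%, against 20.1% of all genes). A positive change was seen for 154 members (66.1% against 62.3%), 163 with quantile normalization (70% against 53.1%) and 157 with loess (67.4% against 50.7%). Array weights, which let limma count less on more variable arrays, called 67 members higher and 22 lower, with 29.4% of all genes called.

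The median change of the members in HF-FD was 0.06 with either scaling, against 0.05 over all genes with deposited values and 0.01 with quantile-normalized values. LF-CD and HF-FD arrays did not overlap for 18 members that were higher and 4 that were lower with deposited values (background 5.88% and 2.44%), and for 24 and 5 after quantile normalization (background 3.78% and 1.73%). At the median, a 95% interval reached 0.152 to either side of the change.

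The members with the smallest unadjusted p in HF-FD are given beside their HF-SD changes, and both comparisons share the LF-CD arrays. Zfp472 had 0.40 in HF-FD (SE 0.09) and 0.36 in HF-SD, and Zfp483 had 0.32 (SE 0.07) and 0.39. Zfp952 had 0.26 and 0.20, Zfp458 0.21 and 0.25, Zfp189 0.20 and 0.26, and Zfp35 0.23 and 0.26. Zfp655 had 0.33 in HF-FD and 0.35 in HF-SD, and Zfp683 had -0.19 and -0.27. All 8 had an adjusted p of 0.205 in HF-FD by limma and were past the threshold in HF-SD with deposited values. The other rows of Zfp655 changed by 0.0025 and -0.11 in HF-SD against LF-CD, so its rise rests on the row used.

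The oils were compared directly in HF-SD against HF-FD, where the amount of fat was equal. Limma called 0 members and 0% of all genes with each of the 3 normalizations, and the smallest adjusted p of a member was 0.246 with deposited values. At an unadjusted p under 0.05, 6 members were higher in HF-SD and 7 lower with deposited values (2.58% and 3%, against 8.77% and 6.7% of all genes). It was 8 and 4 after quantile normalization (3.43% and 1.72%, against 6.19% and 2.62%, or 8.81% in either direction) and 13 and 9 after loess (5.58% and 3.86%, against 7.72% and 6.85%). A positive difference was seen for 88 members (37.8%, against 50.8% of all genes) and for 125 with quantile normalization (53.6% against 56.8%). Array weights called 10 higher and 39 lower, with 29.1% of all genes called.

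The median difference of the members between the oils was -0.02 with deposited values and 0.00 with quantile-normalized values, and a 95% interval reached 0.144 to either side at the median. The 8 members with the smallest unadjusted p were Zfp764 at -0.17, Zfp972 at 0.27, Zfp664 at 0.23, Zfp819 at -0.15, Zfp526 at -0.15, Zfp469 at -0.17, Zfp629 at -0.13 and Zfp317 at 0.21. For Zfp972 the 95% interval ran from 0.09 to 0.45, and for Zfp472, with a difference of -0.04, from -0.22 to 0.14. With deposited values 0 members were apart as higher and 6 as lower between both oil groups (background 2.2% and 3.7%), and after quantile normalization 5 and 5 (background 1.87% and 1.52%).

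Of the 233 members, 231 were placed by RefSeq on assembly GRCr8, and 74 had another member next to them in the order of protein-coding genes, in 29 runs. Among the 74, 11 were higher and 5 lower in HF-SD than LF-CD with deposited values (14.9% and 6.76%), and among the 157 others 35 and 14 (22.3% and 8.92%). After quantile normalization it was 9 and 1 of the 74 and 30 and 7 of the 157. Of all genes, 22.9% were higher and 16.9% lower with deposited values, and 10.1% and 4.51% after quantile normalization. The difference between the 74 and the 157 was not tested. Chromosome 1 held 67 members, of which 11 were higher and 9 lower with deposited values, and 8 and 3 after quantile normalization.

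The longest run had 6 genes on chromosome 1 (Zfp27, Zfp420, Zfp74, Zfp568, Zfp14 and Zfp82), and none of them passed with deposited or quantile-normalized values, where changes ran from -0.11 to 0.18 and from 0.07 to 0.16. A run of 5 on chromosome 8 (Zfp560, Zfp26, Zfp426, Zfp266 and Zfp846) had changes of 0.03 to 0.20 with deposited values, and 2 of the 5 were called higher with each scaling. With deposited values these were Zfp846 and Zfp266, and Zfp266 (0.20) lost its call without LF-CD replicate 1 or 2 (adjusted p = 0.0626 and 0.0540 by limma). Zfp846 was called with both (0.19 and 0.27 on the log2 scale, adjusted p = 0.0146 and 0.0142 by limma). The run of Zfp472, Zfp952, Zfp763 and Zfp101 on chromosome 7 went from 0.36 down to -0.03 with deposited values and from 0.55 to 0.17 with quantile-normalized values. The -0.03 was Zfp101, and another row of Zfp101 (mean 6.64, against 6.73 for the row used) changed by 0.26 with deposited values. On chromosome 4, the change of Zfp398 was 0.17 with deposited and with quantile-normalized values, and it passed with the former only (adjusted p = 0.0270 and 0.0689 by limma). Zfp956, in the same run of 4, was lower with both scalings. The Zfp398 call was lost without LF-CD replicate 1, 3 or 4 or HF-SD replicate 2 or 5, with adjusted p-values of 0.0502 to 0.0686 by limma.

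**Figure D4:**
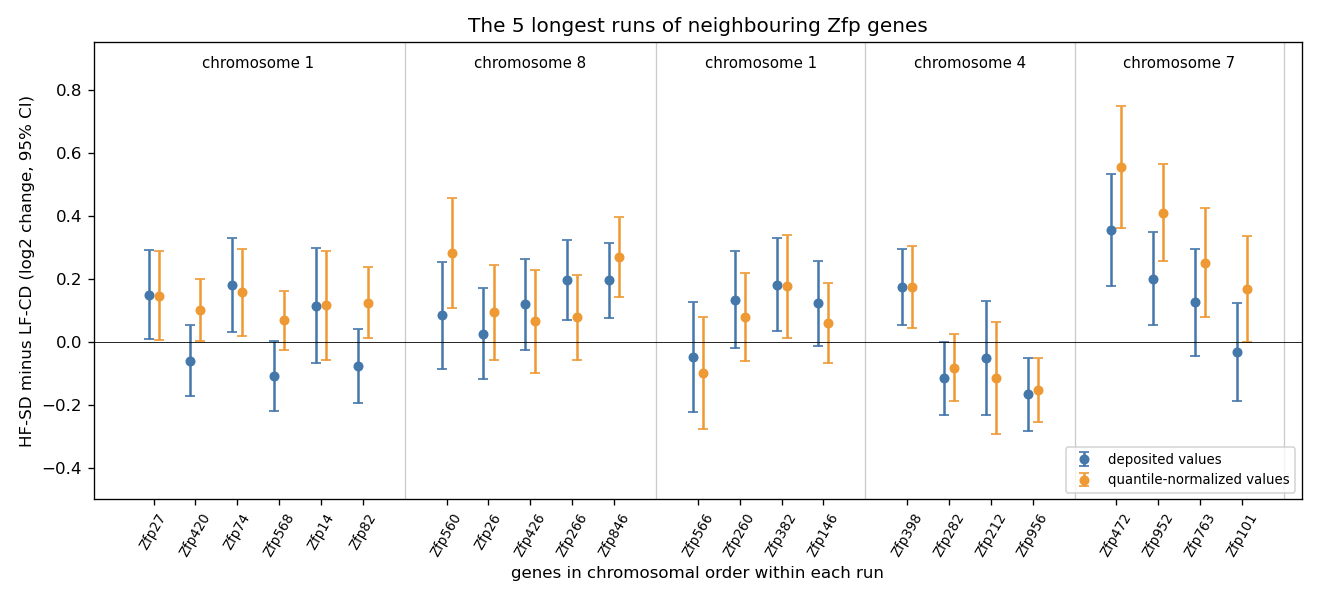
HF-SD minus LF-CD log2 change with its 95% confidence interval for the Zfp genes of the 5 longest runs of adjacent members, in chromosomal order, with deposited and quantile-normalized values side by side. The run of 6 on chromosome 1 has no called gene, and in the run on chromosome 7 Zfp472 and Zfp952 are called with both scalings and Zfp763 and Zfp101 with neither.

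Promoters were read from RefSeq (GRCr8) as the 250 bases before the start of transcription, of the first entry listed for a gene. They were found for 190 of the 233 members (81.5%) and 12580 of all tested genes. The median GC content was 56.0% in the members and 59.2% in all tested genes. Members called with all 3 normalizations had 52.4% where higher (21 with a promoter) and 61.2% where lower (6 with a promoter), against 58.0% and 54.8% for all genes called so. With deposited values alone the members had 56.0% where higher, 59.0% where lower and 56.0% where not called.

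Motifs were searched as exact letters on both strands. The GC box GGGCGG was in 42.1% of member promoters, 53.3% of those of tested genes and 32.4% of all 27457 RefSeq promoters. The CCAAT box, CCAAT, was in 40.0%, 34.5% and 34.3%, and the ETS core CCGGAAG in 14.7%, 12.4% and 7.74%. The core motif of ZNF143, the human counterpart of Zfp143, was in 4 member promoters (Zfp1, Zfp180, Zfp458 and Zfp692), which is 2.11% against 0.548% of tested genes and 0.28% of all promoters, and the NRF1 motif was in 3.68%, 1.41% and 0.849%. The short cyclic AMP element TGACGT was in 6.84%, 9.6% and 7.25%, and the full one, TGACGTCA, which contains it, in 2.63%, 2.62% and 1.7%. The TATA box TATAAA was in 8.42%, 7.7% and 13.1%. A match describes these letters and does not show binding.

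The promoters of 2 members that were higher and 2 that were lower with all 3 normalizations are printed, so that the windows can be set beside their opposite changes: Zfp281 and Zfp472, then Zfp579 and Zfp524, which lie close together on chromosome 1. Each is read 5′ to 3′ on the strand of its gene, in GRCr8 coordinates from RefSeq, and capitals mark the CCAAT box, GC box, ETS core, short cyclic AMP element and TATA box spelled above, on either strand.
Zfp281 (chr13:50647572-50647821, plus strand): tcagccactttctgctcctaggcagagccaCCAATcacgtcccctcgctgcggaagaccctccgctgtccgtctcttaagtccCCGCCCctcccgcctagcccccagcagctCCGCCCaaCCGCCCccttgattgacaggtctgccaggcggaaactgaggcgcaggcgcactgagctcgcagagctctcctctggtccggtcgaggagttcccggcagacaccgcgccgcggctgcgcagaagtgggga
Zfp472 (chr7:12724877-12725126, plus strand): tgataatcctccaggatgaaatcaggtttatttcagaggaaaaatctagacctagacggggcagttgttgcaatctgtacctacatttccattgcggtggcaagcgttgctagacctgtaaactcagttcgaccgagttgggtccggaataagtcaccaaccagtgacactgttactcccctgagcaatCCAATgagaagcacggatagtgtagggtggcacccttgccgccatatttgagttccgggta
Zfp579 (chr1:77876169-77876418, plus strand): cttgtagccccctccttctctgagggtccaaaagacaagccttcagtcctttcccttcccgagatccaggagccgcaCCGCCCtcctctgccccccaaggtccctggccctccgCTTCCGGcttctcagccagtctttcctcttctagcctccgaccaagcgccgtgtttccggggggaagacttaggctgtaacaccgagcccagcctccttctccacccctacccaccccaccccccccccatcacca
Zfp524 (chr1:77854697-77854946, minus strand): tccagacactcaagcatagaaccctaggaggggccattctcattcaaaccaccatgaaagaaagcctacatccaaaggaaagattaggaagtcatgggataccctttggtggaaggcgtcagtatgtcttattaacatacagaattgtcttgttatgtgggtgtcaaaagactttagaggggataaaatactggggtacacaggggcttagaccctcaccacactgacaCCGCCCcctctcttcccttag
The windows differed in composition, with GC contents of 67.2% for Zfp281, 48.4% for Zfp472, 63.6% for Zfp579 and 46.4% for Zfp524. Zfp281 held 3 GC boxes and 1 CCAAT box and Zfp472 held 1 CCAAT box alone. Zfp579 held 1 GC box and 1 ETS core, and Zfp524 held 1 GC box.

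The arrays of a group differed less for the median member than for the median tested gene, but some members split widely. Zfp347 read 5.84, 6.21, 7.10 and 6.86 in LF-CD. Zfp386 read 6.79, 6.94, 7.71 and 7.71 in LF-CD, and 7.09, 7.50, 7.18, 7.89 and 7.19 in HF-SD. The median within-group SD of a member was 0.111 in LF-CD, 0.0773 in HF-FD and 0.0704 in HF-SD, against 0.130, 0.102 and 0.0944 over all tested genes. The median signal of the 233 members on an array was 7.83 ± 0.05 in LF-CD (SD, n = 4), 7.90 ± 0.03 in HF-FD (n = 4) and 7.87 ± 0.02 in HF-SD (n = 5). After quantile normalization it was 7.80 ± 0.03, 7.89 ± 0.03 and 7.89 ± 0.01. Signals of different genes depend on their probes and were not ranked against each other. Of the 16 members with more than 1 row, the 20 other rows had the sign of the row used in 13 cases for HF-SD against LF-CD.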

How the data were processed

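Total RNA of 13 rat hypothalamus samples was measured on Affymetrix arrays. The deposited table holds log2 signals that the authors made with RMA in Affymetrix software (Expression Console and Transcriptome Analysis Console), per the submitters' processing notes. Of 70580 rows, 1738 were controls; 23446 had 1 symbol, for 22093 genes. No source used here names the build behind the rows. Groups came from the titles. Whether an array holds RNA of a single rat is not stated in the labels, so p-values measure only the spread between these samples. The number of arrays limits the precision (10 residual degrees of freedom).

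The deposited log2 values were fitted with limma 3.58.1 in R 4.3.3 (lmFit, eBayes), with 1 mean per diet over all 13 arrays, and p-values were adjusted by Benjamini-Hochberg over 16033 genes with a threshold of 0.05, two-sided. Non-control rows were also quantile-normalized, and tested genes normalized by cyclic loess. The fit was tested on simulated data. Alternatives were other centrings, filters on signal, the mean of all rows of a gene, fits of the 2 groups compared, array weights, a replicate block and leaving out each array. The members and lists were chosen with earlier results of these data known.

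Genes were named by rule: for each comparison the 8 highest and 8 lowest changes among those called, filled by smallest p where fewer passed; up to 20 members called with all 3 normalizations; the 5 with the highest mean signal; those next to the signal threshold; the role lists; and the 4 smallest p of the KRAB partner and hypothalamus lists. Zfp112, Zfp347, Zfp386, Zfp398, Zfp513, Zfp839, Zfp846, Zfp956, and the genes named for a run or a motif, fall outside this rule and were chosen after their values were seen. Trim28 also falls outside it. Protein sequences were not used here, so finger number and KRAB domains were not counted. Markers of astrocytes (1 of 5 higher, 0 lower), oligodendrocytes (0 of 4 called), microglia (1 of 5 higher, 0 lower), choroid plexus (0 higher, 2 of 4 lower), ependyma and tanycytes (0 higher, 2 of 4 lower), pituitary (0 higher, 1 of 2 lower), blood (0 of 2 called), skeletal muscle (0 higher, 6 of 7 lower) and hypothalamus (0 higher, 2 of 13 lower) were read in HF-SD against LF-CD with deposited values.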

Additional observations from a re-analysis of the deposited data

Results flagged for a closer look

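Among the named members and the member medians, 204 groups of 4 or 5 arrays were searched for an array far from the others of its group, and 8 were found, while chance flags about 1 in 20. In LF-CD, Zfp219 was low on replicate 3 at 8.47 (others 8.54 to 8.54), Zfp462 was low on replicate 1 at 8.73 (others 8.96 to 8.99), and replicate 4 was high for Zfp281 at 7.47 (others 7.29 to 7.30), Zfp407 at 7.54 (others 7.52 to 7.52) and Zfp521 at 8.47 (others 8.31 to 8.34). In HF-FD, Zfp598 was high on replicate 1 at 8.37 (others 8.28 to 8.29). In HF-SD, Zfp248 was high on replicate 2 at 8.05 (others 7.90 to 7.94) and Zfp365 on replicate 5 at 10.64 (others 9.82 to 9.98).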

How the results depend on the processing

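For HF-SD against LF-CD, the number of members called higher (46) became 22 with centring on the tested genes, 23 with a filter at the 75th percentile of row means, which tests fewer members, and 150 with centring on all rows, which was chosen after seeing the data. The number called lower (19) became 44, 5 and 0 under these, and 8 with quantile normalization. With array weights 60 members were higher and 52 lower. The main fit called 39.8% of all tested genes in either direction. That share was 42.1% with centring on the tested genes, 36% with the filter and 60.4% with centring on all rows. It was 14.6% with quantile normalization and 56.1% with array weights. The median change (0.030) became -0.017 with centring on the tested genes, 0.24 with centring on all rows and 0.082 with quantile normalization. With single arrays left out, the counts ran from 24 to 49 higher and 12 to 28 lower, with a median of 0.0077 to 0.046, lowest without LF-CD replicate 3. The count was 24 higher and 12 lower without LF-CD replicate 1, 26 higher without HF-SD replicate 5 and 12 lower without HF-SD replicate 1. These fits called 28.3%, 28.1% and 29.8% of all tested genes, in that order. The highest counts were 49 higher without HF-FD replicate 1 and 28 lower without LF-CD replicate 3. Those 2 fits called 42.5% and 40.1% of all tested genes in either direction. With quantile-normalized values (39 higher, 8 lower) the ranges were 23 to 49 higher, 2 to 13 lower and a median of 0.070 to 0.093. The count was 23 higher and 2 lower without HF-SD replicate 1, 24 and 3 without HF-SD replicate 5, and 49 and 13 without LF-CD replicate 3, while the lower count was 2 without LF-CD replicate 1, 4 without LF-CD replicate 2 and 3 without HF-SD replicate 3. For these quantile-normalized fits the share over all genes was not counted, so member and array-wide swings cannot be told apart. Of the 65 called members, 33 kept their call in every fit without 1 array, and 7 lost it without LF-CD replicate 3. Kept and lost calls were not counted over all genes.

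For HF-FD against LF-CD, array weights called 67 higher and 22 lower, and the median (0.056) became 0.018 with centring on the tested genes and 0.16 with centring on all rows. For HF-SD against HF-FD, array weights called 10 higher and 39 lower, and the median (-0.023) became 0.088 with centring on all rows. Limma called 0 members in either comparison with single arrays left out, with deposited or quantile-normalized values. Over all tested genes, with deposited values, HF-SD against HF-FD had 90 calls (0.561%) without HF-SD replicate 4 and 3 (0.0187%) without HF-FD replicate 4. The other deposited fits of these comparisons without 1 array called 0% of all genes, and the quantile-normalized ones were not counted over all genes. The medians ran from 0.028 to 0.071 (0.056 to 0.077 with quantile normalization) in the first and from -0.036 to -0.010 (-0.0045 to 0.018) in the second.

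Replicate numbers were not taken to pair the samples, since the labels name nothing that same-numbered arrays share and 7 of 12 such pairs, not all, correlated over 0.1 (-0.26 to 0.43). Their median correlation was 0.19, against -0.06 for the other 44 pairs of arrays from different groups. With the replicate block, 29 members were higher and 10 lower in HF-SD against LF-CD, 0 were called in the other comparisons, and Zfp346 (-0.0087) and Zfp598 (0.0043) turned sign. The block called 29% of all tested genes in HF-SD against LF-CD, in either direction, and 0% in the other comparisons.

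The other named members that turned sign in HF-SD against LF-CD were uncalled with deposited values. With quantile normalization they were Zfp106 (-0.017), Zfp24 (-0.017), Zfp532 (-0.029) and Zfp704 (0.020), with loess Zfp106 (-0.035), Zfp24 (-0.051), Zfp462 (-0.035) and Zfp532 (-0.068), with centring on the tested genes Zfp346 (-0.032) and Zfp407 (-0.0080), with array weights Zfp346 (-0.0025) and Zfp532 (-0.0061), and with the mean of all rows of a gene Zfp536 (-0.073). With centring on all rows they were Zfp219 (0.18), Zfp335 (0.095), Zfp423 (0.19), Zfp467 (0.12), Zfp488 (0.20), Zfp516 (0.062), Zfp592 (0.21), Zfp598 (0.21), Zfp653 (0.10), Zfp687 (0.18), Zfp703 (0.038) and Zfp704 (0.21). With single arrays left out, the lowest and highest changes were Zfp24 -0.0025 to 0.087, Zfp346 -0.029 to 0.052, Zfp423 -0.077 to 0.0085, Zfp488 -0.076 to 0.035, Zfp592 -0.037 to 0.027, Zfp598 -0.025 to 0.028, Zfp704 -0.035 to 0.025. The causes were not tested, and 4 or 5 arrays a group limit what can be seen.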
